A study of Mus musculus with 238 samples.

Results

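Gene expression in the brainstem was compared with that in the cerebral cortex of the same aged mice, using control animals alone. The medulla and the pons stood for the brainstem, and motor, visual and entorhinal cortex for the cortex. In each animal the mean log2 CPM (a gene's share of a library's counts scaled to a fixed total, on a log2 scale) of the brainstem regions had the mean of the cortical regions subtracted, and the difference was tested over 8 animals. This took 37 libraries of the 238 in the series, 15 from brainstem and 22 from cortex.

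All 8 animals were C57BL/6JN mice of 19 months. The 4 AL animals were females fed ad libitum, the controls of a dietary restriction experiment. The 4 PBS animals were males injected with saline behind the eye, the controls of an experiment with plasma from young mice. Sex, handling and experiment change together between the cohorts and cannot be told apart. The medulla and motor cortex had 8 libraries each, and the pons, visual and entorhinal cortex 7 each. AL mouse 68 had no entorhinal library, and PBS mouse 72 had no pons and no visual cortex library. RNA came from homogenised tissue, and libraries were unstranded Smart-Seq2 cDNA tagmented with Nextera XT.

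The medulla and pons form from the embryonic hindbrain, where Hox genes and other transcription factors mark position along the body axis. Part of that code is known to persist in adult neurons. The medulla and pons hold nuclei of cranial nerves, serotonin neurons of the raphe, noradrenaline neurons and many glycine neurons, together with long myelinated tracts. Cortex forms from the telencephalon, where Emx genes act early. Its excitatory neurons load glutamate with Slc17a7, whereas many brainstem and thalamic neurons use Slc17a6.

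Of 21076 genes in the table, 14257 passed the filter on low counts and were tested. At an adjusted p under 0.05, 11133 genes differed, which is 78.1% of those tested, so a call by itself separates few genes from the rest. Brainstem was higher for 5559 genes (39.0%) and lower for 5574 (39.1%). With a difference of at least 2-fold as well, 2784 genes (19.5%) were called, 1390 higher (9.75%) and 1394 lower (9.78%). The difference had 1 sign in every animal for 9121 genes (64.0%). The median over all genes was 0.0042 on the log2 scale. Every brainstem library lay above every cortical library for 1215 genes (8.52%), and every one lay below for 1411 (9.90%). A CPM value is a share of a library's counts, and in bulk tissue fewer cells of a type and less RNA per cell cannot be told apart.

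Library totals ran from 2.28 to 32.4 M counts in brainstem and from 2.22 to 22.1 M in cortex, with medians of 8.42 M in each. Within animals the log2 total differed by 0.14 on average (exact sign-flip test, two-sided, p = 0.672, n = 8). Mitochondrial genes took a larger share of counts in brainstem in 8 of 8 animals, by 0.513 percentage points, and the 10 most abundant genes did so by 2.28 points (both p = 0.00781, the smallest that 8 animals allow in the exact sign-flip test). The part of these shares in the results was not tested. In a principal component analysis of the tested genes, the component with the largest variance (63.1%) separated every brainstem library from every cortical library.

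**Figure D1:**
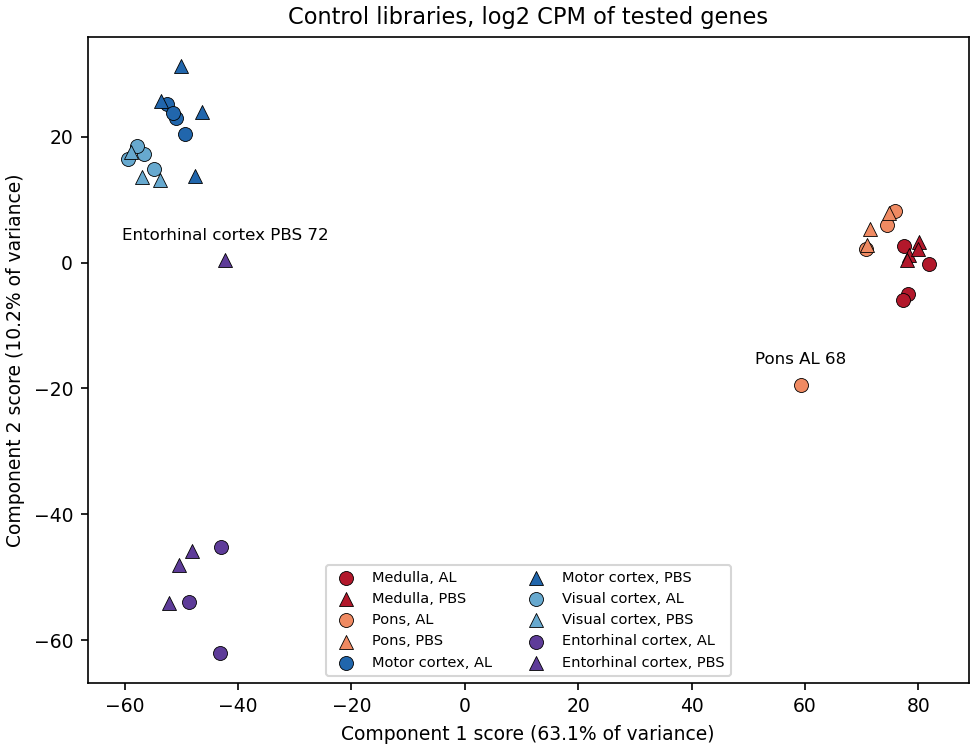
Scores of the 37 control libraries on principal components 1 (63.1% of variance) and 2 (10.2%) of log2 CPM; circles are AL and triangles PBS. Brainstem libraries lie on the right and cortical libraries on the left, and the labelled pons library of AL mouse 68 and entorhinal library of PBS mouse 72 lie away from the others of their region.

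Those labelled libraries stood apart from the rest of their regions. The pons library of AL mouse 68 scored -19.5 on component 2, where the other 6 pons libraries ran from 2.14 to 8.14. It held 0 CPM of Hoxb5, Hoxb3 and Hoxa5, against 18.4 to 39.9, 6.76 to 12.3 and 4.80 to 11.5 CPM in the other pons libraries. Its Slc17a7 was 2.85 CPM against 142 to 280.1 CPM, and its level of Th, the tyrosine hydroxylase of catecholamine synthesis, was 1178 CPM against 1.60 to 304 CPM. Transcripts of the pituitary hormones Prl and Gh were at 260.1 and 59.8 CPM there, against 0 to 180.4 and 0.458 to 43.7 CPM. The entorhinal library of PBS mouse 72 scored 0.35 on component 2, where the other 6 ran from -62.1 to -45.2. Its myelin gene Mbp was 2253 CPM against 231 to 745 CPM, its Pvalb was 54.7 CPM against 5.01 to 10.2 CPM, and its Penk was 21.4 CPM against 187 to 377 CPM. Without both libraries 11123 genes were called and 10910 of these were shared with the full set; for the 2-fold calls the numbers were 2851 and 2737.

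The 12 largest differences in favour of brainstem were those of Slc6a5, Irx2, Klk6, Slc10a4, Gata3, Mab21l2, Slc6a4, Glra1, Hoxb5, Shox2, Hoxb3os and Tph2, from 7.84 down to 5.66 on the log2 scale. All 12 were higher in 8 of 8 animals, which the choice of genes required. For 9 of the 12 no brainstem library overlapped a cortical one. Over all genes this held for 8.52%, but genes chosen for a large difference favour it. Hoxb3os is transcribed antisense to Hoxb3, and without strand information reads of these overlapping genes cannot be told apart.

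Slc6a5, the glycine transporter that marks glycine neurons (chr7:49910146-49963856, forward strand, GRCm38), had the largest difference. Its brainstem libraries ran from 3.99 to 190.5 CPM with a median of 54.5 CPM, and its cortical libraries from 0 to 0.0755 CPM with a median of 0. The classes did not overlap, and the mean difference over 8 animals was 7.84 ± 0.21 (SE; limma adjusted p = 3.47e-11). A total of 11458 brainstem counts stood against 1 cortical count, a depth-scaled ratio of 15739 with a 95% counting interval from 2824 to 621700, so the fitted log2 value understates the difference. Klk6, a kallikrein protease abundant in oligodendrocytes, ran from 60.6 to 124.5 CPM in brainstem (median 79.4) and from 0 to 3.57 CPM in cortex (median 0.348), a difference of 7.25 ± 0.12.

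Among the 12 largest differences in the other direction were Nrgn, Kcnh3, Tbr1, Fezf2, Egr3, Ddn, Kcnj4, Dlx1, Emx1 and Crym, from -7.97 to -6.39. All 12 were lower in 8 of 8 animals, again as the choice required. For 12 of 12 no library of brainstem overlapped one of cortex, against 9.90% of all genes, with the same limit from choosing by size. Nrgn encodes neurogranin, a calmodulin-binding protein of dendritic spines (chr9:37544492-37552904, reverse strand). It ran from 1.78 to 15.96 CPM in brainstem (median 4.54) and from 646 to 1866 CPM in cortex (median 1587). The difference was -7.97 ± 0.06 (SE, n = 8; limma adjusted p = 5.13e-15). Fezf2, a transcription factor of deep-layer projection neurons, had 1 count in all brainstem libraries against 9183 in cortex, a depth-scaled ratio of 6685 (95% counting interval 1200 to 264090).

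**Figure D2:**
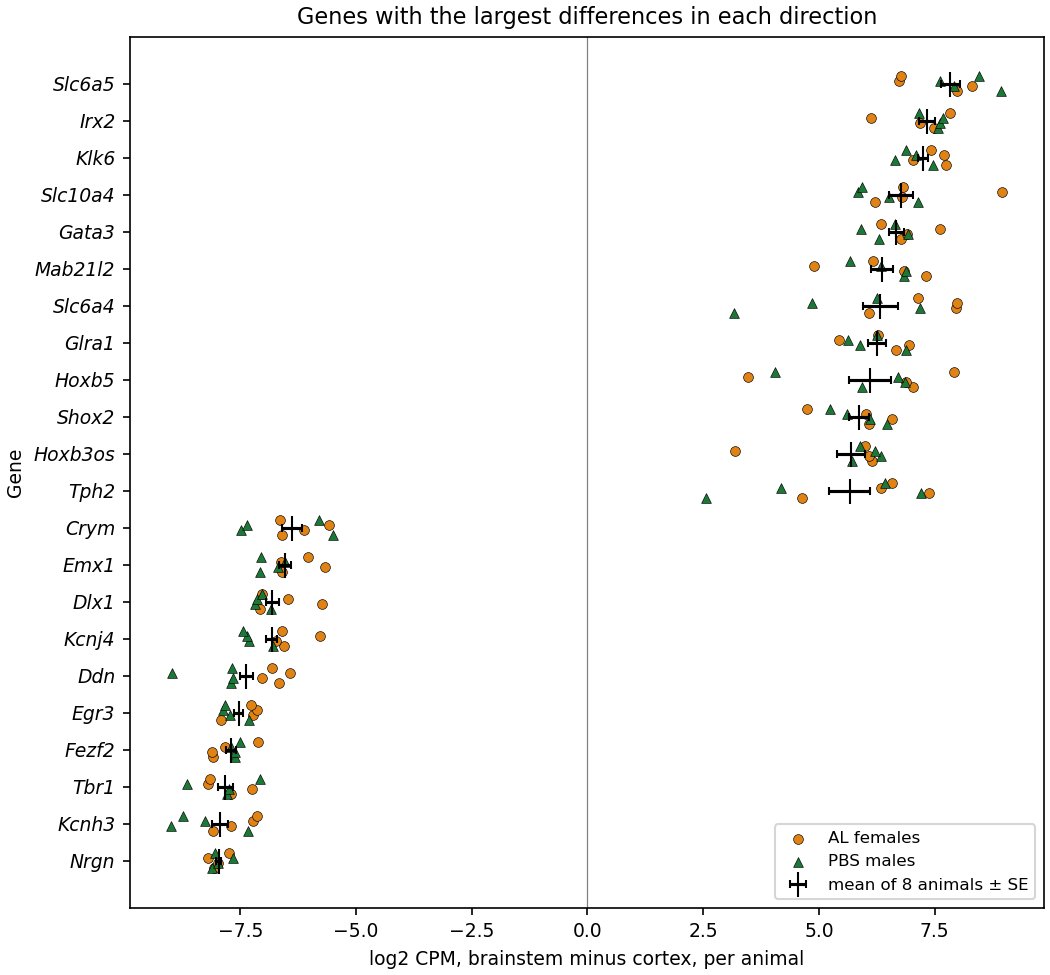
Difference in log2 CPM, brainstem minus cortex, in each of 8 animals (circles AL females, triangles PBS males) for 22 genes with the largest called differences, 12 higher and 10 lower, with the mean and its SE. Every animal lies on the same side of 0 for every gene, as the choice of genes required. Hoxb5, Hoxb3os, Slc6a4 and Tph2 show the widest spread.

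The 250 bases upstream of the transcription start given by RefSeq are shown for the gene with the largest difference in each direction, to set the sequences of opposite regional genes side by side. They are in the build GRCm38.p6 and read 5′ to 3′ on the strand of the gene. Capitals mark each CG dinucleotide, the target of DNA methylation. Slc6a5 is shown at chr7:49910049-49910298 on the forward strand and Nrgn at chr9:37552746-37552995 on the reverse strand.
Slc6a5: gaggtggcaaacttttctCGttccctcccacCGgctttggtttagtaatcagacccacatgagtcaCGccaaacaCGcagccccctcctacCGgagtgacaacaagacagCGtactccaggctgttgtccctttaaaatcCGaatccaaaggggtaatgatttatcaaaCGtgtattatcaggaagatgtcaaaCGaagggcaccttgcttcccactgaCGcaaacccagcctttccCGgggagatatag
Nrgn: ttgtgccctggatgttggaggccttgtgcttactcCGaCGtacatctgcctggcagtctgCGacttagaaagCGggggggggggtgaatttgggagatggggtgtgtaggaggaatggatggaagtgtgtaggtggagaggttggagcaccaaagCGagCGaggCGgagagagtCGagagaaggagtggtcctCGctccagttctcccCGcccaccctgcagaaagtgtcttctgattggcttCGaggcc
For both genes the RefSeq start lies inside the GENCODE gene given above, so the larger part of each window lies within that gene. Each window held 11 CG dinucleotides. A RefSeq window was matched for 11158 of the 14257 tested genes (78.3%). Among these windows the median was 15 CG, and 35.2% held 11 or fewer. Because 76.5% of the genes higher by 2-fold and 74.1% of those lower by 2-fold had a window, the called sets were not compared on CG content.

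Hox genes were found in brainstem and nearly absent from cortex. The summed Hox level ran from 2.42 to 292 CPM over brainstem libraries, the lowest being the pons library of AL mouse 68, and from 0 to 1.05 CPM over cortical libraries. Of 39 Hox genes, 14 passed the filter, and all 14 were called higher, each by over 2-fold. Passing the filter required counts in some region, so the share among tested members says little by itself, and 25 members were not tested. The tested members came from the 3′ end of the clusters, among them Hoxa2 to Hoxa5, Hoxb2 to Hoxb5, Hoxc4, Hoxc5, Hoxd1, Hoxd3 and Hoxd4. Members nearer the 5′ end were scarce: Hoxb6 had 171 counts and Hoxb8 had 7 over all brainstem libraries, and both had 0 in cortex. The median difference of the tested members was 4.44, against 0.0042 over all genes. It was 7.71 with the 8 members that had no cortical count set at their lower bound. The filter limits these medians in the same way as the share.

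Hoxb5 (chr11:96303336-96306121, forward strand) showed the largest Hox difference. Its brainstem libraries ran from 0 to 82.4 CPM with a median of 26.5 CPM, and every cortical library was at 0. The pons library of AL mouse 68 was the single brainstem library at 0 and the only point of overlap. The difference was 6.11 ± 0.45 (SE, n = 8; limma adjusted p = 1.63e-07), and 6.56 without that library. With 3569 counts against 0, brainstem was at least 1634-fold higher at a floor of 3 counts over the cortical libraries. Hoxa5 (963 counts against 0) was at least 441-fold higher and Hoxd3 (1888 against 0) at least 864-fold higher.

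Other transcription factors of the hindbrain followed in the same direction. Of 30 listed, 24 were tested, 22 were called higher, where 39.0% of all genes were, and 2 lower, with a median of 3.21 (3.42 with 2 members at their bound). As with the Hox genes, members with 0 to 3 cortical counts, such as En1, Lbx1, Pax8 and Irx5, passed the filter through brainstem alone. Irx2, an Iroquois homeobox gene, ran from 8.09 to 157 CPM in brainstem (median 22.9) and from 0 to 0.0808 CPM in cortex. The difference was 7.33 ± 0.18, with no overlap between classes. Gata3, a zinc finger factor used by serotonin neurons and by inhibitory hindbrain interneurons, differed by 6.67 ± 0.17, Irx5 by 5.26 ± 0.15, and Fev, the factor of serotonin neuron identity, by 4.16. The lower members included Egr2 (-5.75 ± 0.16), which patterns the embryonic hindbrain and is also an activity-regulated gene in cortex.

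Cortical transcription factors showed the reverse. Of 30 factors of excitatory cortical neurons, 29 were called lower in brainstem and 0 higher, with a median of -2.52. By over 2-fold 23 were lower. Over all genes 39.1% were lower and 9.78% lower by 2-fold. Members near 0 in brainstem, such as Fezf2, passed the filter through cortex alone, which limits this count. Tbr1, a T-box factor of deep-layer neurons, ran from 0 to 0.684 CPM in brainstem with a median of 0.183 and from 36.2 to 169 CPM in cortex with a median of 99.5. The difference was -7.82 ± 0.15 without overlap, and Emx1 differed by -6.54. Foxp2, which many brain regions use, was not called (0.20, adjusted p = 0.465). Of 13 factors of forebrain GABA neurons 11 were lower and 2 higher. Dlx1 differed by -6.81 and Lhx6 by -5.62, while Prox1 was 1.58 ± 0.06 higher and Npas1 0.58 ± 0.12 higher. Npas1 was higher in 7 of 8 animals and missed the threshold when the medulla was left out (0.29, limma adjusted p = 0.199).

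The glutamate transporters divided. Slc17a6, the vesicular transporter VGLUT2 (chr7:51622006-51671119, forward strand), ran from 143 to 321 CPM in brainstem with a median of 248 CPM. In cortex it ran from 14.7 to 69.1 CPM with a median of 28.3 CPM, and the classes did not overlap. The difference was 2.92 ± 0.13 (SE, n = 8; limma adjusted p = 1.49e-09), or 7.57-fold. Slc17a7, the transporter VGLUT1 (chr7:45163949-45176142, forward strand), ran from 2.85 to 280.1 CPM in brainstem (median 68.6) and from 367 to 1036 CPM in cortex (median 547). It was lower by 3.20 ± 0.34 on the log2 scale, again without overlap. AL mouse 68, whose pons library stood apart, was at -6.26, and the other animals ran from -3.17 to -2.15. Slc17a7 within brainstem was split by region, with a median of 26.1 CPM in medulla and 225 CPM in pons. Medulla minus pons was not called (-2.01, limma adjusted p = 0.060). In AL mouse 68 the pons (2.85 CPM) lay below the medulla (14.2 CPM), whereas in every other animal with both regions the pons was higher. Slc17a8 (VGLUT3), found in a subset of serotonin and other neurons, was higher by 2.05 ± 0.35 in 7 of 8 animals. That difference came with a pons median of 28.2 CPM against 2.61 CPM in medulla, and without the pons it missed the threshold (0.67, limma adjusted p = 0.073).

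The upstream windows of the transporter pair, which lie on the same chromosome and had opposite regional levels, are shown with CG dinucleotides in capitals. Slc17a6 is at chr7:51621580-51621829 and Slc17a7 at chr7:45163671-45163920, both on the forward strand of GRCm38.p6.
Slc17a6: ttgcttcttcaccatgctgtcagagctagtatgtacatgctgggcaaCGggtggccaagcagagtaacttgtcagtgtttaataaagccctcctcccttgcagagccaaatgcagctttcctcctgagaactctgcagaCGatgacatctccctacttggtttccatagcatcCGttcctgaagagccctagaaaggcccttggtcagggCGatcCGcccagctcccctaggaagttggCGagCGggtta
Slc17a7: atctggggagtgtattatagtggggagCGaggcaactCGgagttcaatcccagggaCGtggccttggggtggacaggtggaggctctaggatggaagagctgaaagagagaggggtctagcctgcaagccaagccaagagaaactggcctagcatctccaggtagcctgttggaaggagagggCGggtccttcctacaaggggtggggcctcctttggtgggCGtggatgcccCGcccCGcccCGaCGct
Slc17a6 held 7 CG dinucleotides in its window and Slc17a7 held 9. Of the 11158 matched windows, 21.5% held 7 or fewer.

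Among 28 glutamate transporters and receptors, 9 were higher, 15 lower and 4 not called, with a median of -0.58. Over all genes 39.0% were higher and 39.1% lower. NMDA receptor subunits did not move together: Grin2b was lower by 3.08 ± 0.06 and Grin2a by 2.28 ± 0.05, whereas Grin3b was higher by 2.43 ± 0.17. AMPA receptor subunits Gria1, Gria2 and Gria3 were at -1.64, -2.27 and -1.56, and Gria4 at 0.33, all of them called.

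Of 8 tested genes of glycine transmission 5 were higher, where 39.0% of all genes were, and 1 was lower, with a median of 0.57. Slc6a5 (1 cortical count) and Glra1 (0 to 0.410 CPM in cortex) passed the filter through brainstem alone. Their direction was thus fixed, and the share is limited as for the Hox genes. In PBS animals taken alone 4 of the 8 were called higher. Glra1, the adult glycine receptor subunit (chr11:55514238-55608198, reverse strand), ran from 7.27 to 42.9 CPM in brainstem (median 28.3) and from 0 to 0.410 CPM in cortex (median 0). The difference was 6.25 ± 0.19 without overlap, and Glra1 was 1.51 higher in medulla than in pons (limma adjusted p = 0.0033). Slc6a9, the glycine transporter found mainly in astrocytes, was higher by 2.80 ± 0.04, while Gldc, which breaks glycine down, was lower by 2.98 ± 0.08. Glra3 and Gphn were not called.

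Of 24 tested GABA genes 8 were higher and 16 lower (median -0.61), against 39.0% and 39.1% of all genes. Gad1, which makes GABA, ran from 115 to 529 CPM in brainstem (median 252) and from 328 to 574 CPM in cortex (median 515). The classes overlapped, and the difference was -1.08 ± 0.08 in 8 of 8 animals. Gad2, the second enzyme, was slightly higher (0.30 ± 0.09, 7 of 8 animals), and Slc32a1, the vesicular transporter that GABA and glycine neurons share, was higher by 0.95 ± 0.11. Without the medulla neither was called (0.27 and 0.34, limma adjusted p = 0.089 and 0.1003). Receptor subunits ranged from Gabrq at 4.29 ± 0.19 and Gabre at 2.95 ± 0.24 to Gabra4 at -2.89 ± 0.09 and Gabrd at -4.34 ± 0.24.

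**Figure D3:**
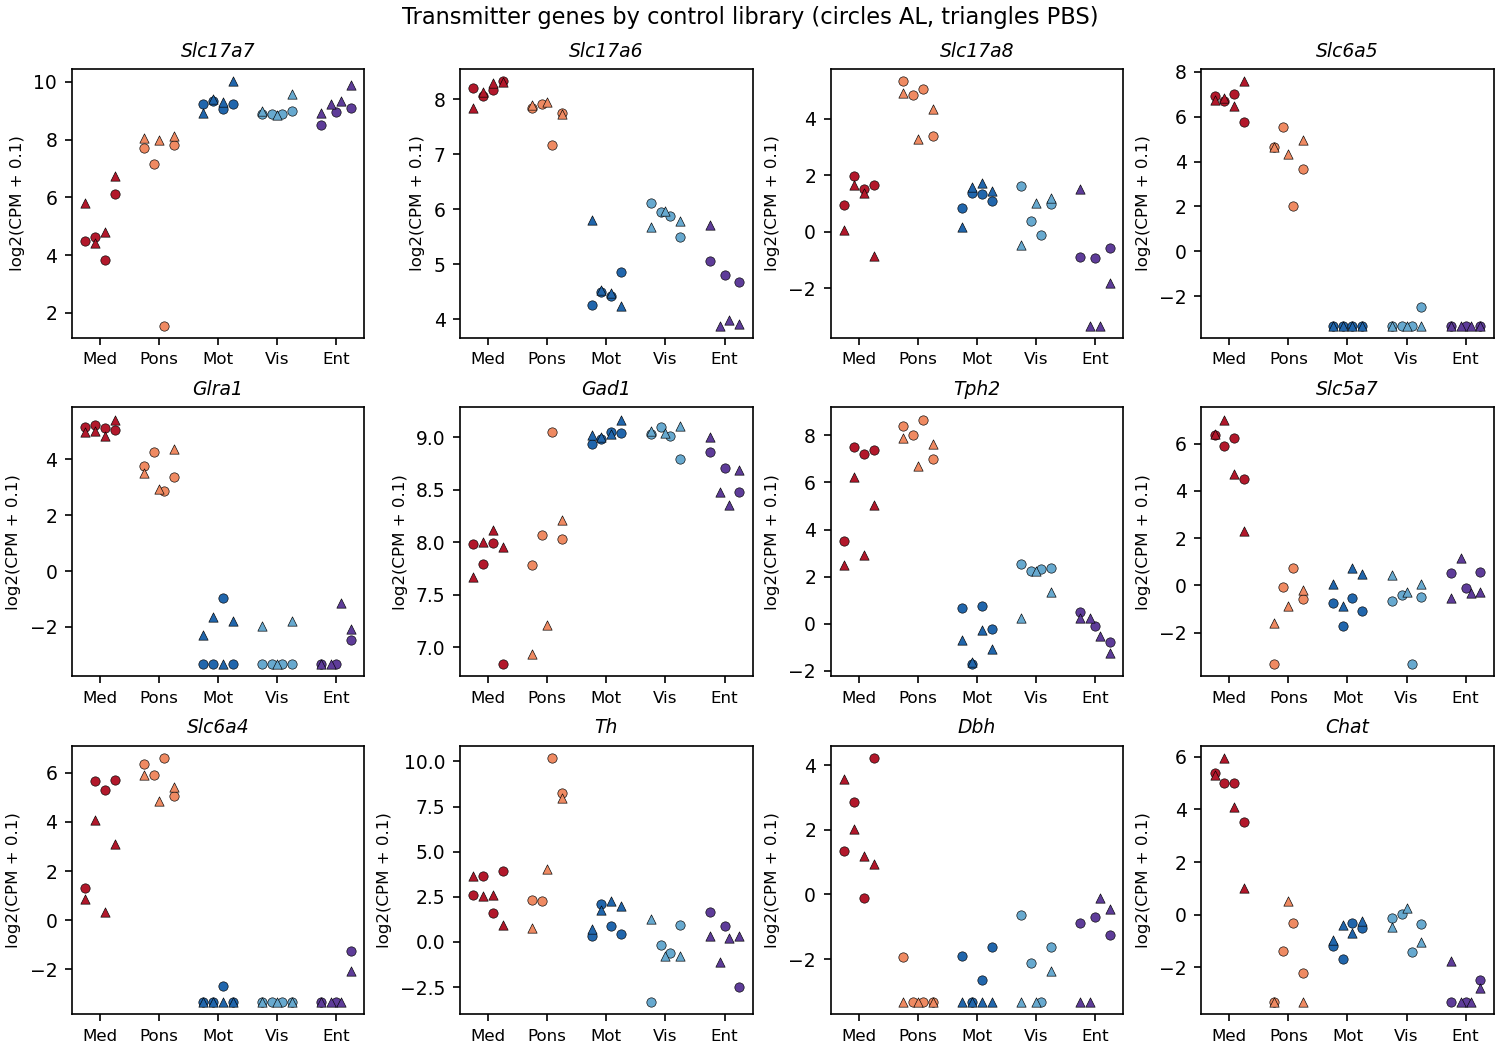
Level of 12 transmitter genes in each control library as log2(CPM + 0.1), in medulla, pons, motor, visual and entorhinal cortex (circles AL, triangles PBS). Slc17a6 lies higher and Slc17a7 lower in brainstem, and Slc6a5 and Glra1 are near 0 CPM in cortex, at the bottom of their panels. Chat and Slc5a7 are higher in medulla than in pons, and Th runs from 1.60 to 1178 CPM among pons libraries.

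Genes of monoamine neurons were mostly higher in brainstem: of 19 tested, 16 were higher and 2 lower, with a median of 1.90. The shares over all genes were 39.0% and 39.1%. Members near 0 in cortex, such as Slc6a4, passed the filter through brainstem alone, which limits this count. Tph2, which makes serotonin in neurons, ran from 5.53 to 407 CPM in brainstem (median 149.7) and from 0.207 to 5.67 CPM in cortex (median 1.08). The ranges overlapped narrowly, and the difference was 5.66 ± 0.45 (SE, n = 8; limma adjusted p = 3.13e-07). Slc6a4, the serotonin transporter, ran from 1.15 to 97.6 CPM against 0 to 0.323 CPM and differed by 6.33 ± 0.38. It was 7.29 in AL and 5.36 in PBS animals, and the cohort difference was not called. PBS mouse 72, which had no pons library, was at 3.16. Ddc, which makes serotonin and dopamine from their precursors, was higher by 3.53 ± 0.21.

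Catecholamine genes varied between libraries of the same region. Th had a median of 6.03 CPM in brainstem and 1.23 CPM in cortex and was called (3.33 ± 0.46, higher in 8 of 8 animals). Its pons libraries split: AL mice 68 and 69 and PBS mouse 84 had 1178, 304 and 251 CPM, and the other 4 had 1.60 to 16.3 CPM. The dopamine transporter Slc6a3 split the same way, with 1216, 316 and 244 CPM in those libraries and 0 to 17.6 CPM in the others. Slc6a3 was not seen above 0.175 CPM in any medulla library. Without the pons library of AL mouse 68 the Th difference was 2.82. Dbh, the noradrenaline enzyme, was higher by 1.90 ± 0.47, with a median of 3.18 CPM in medulla and 0 in pons. PBS mouse 72, which had no pons library, was at 5.78 and the other animals at 0.782 to 2.12. With edgeR on the counts Dbh was not called (adjusted p = 0.457 with the animal as a block and 0.552 without).

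Chat and Slc5a7 were high in the medulla and low in the pons. Chat, which makes acetylcholine, had a median of 32.1 CPM in medulla, 0.115 CPM in pons and 0.398 CPM over cortical libraries, and Slc5a7, the choline transporter, had 68.0 CPM in medulla and 0.573 CPM in pons. The brainstem differences were 2.87 ± 0.48 and 3.05 ± 0.52, and without the pons they were 5.33 and 5.60. In PBS mouse 72, which had no pons library, they were 6.29 and 6.47. The other animals ran from 0.358 to 3.11 and from 0.893 to 4.79. Of 22 listed cholinergic genes 13 were higher in brainstem than in cortex and 5 lower (median 1.61), against 39.0% and 39.1% of all genes. Between the brainstem regions 6 were higher in medulla and 4 in pons, against 5.56% and 5.85% of all genes. The muscarinic receptors moved in both directions: Chrm2 was higher (2.53), and Chrm1 (-6.24 ± 0.15), Chrm4 (-3.83 ± 0.13) and Chrm3 (-2.02 ± 0.13) were lower. Chrm1 ran from 0.754 to 5.70 CPM in brainstem and from 156 to 221 CPM in cortex. Calcb, a CGRP peptide gene of motor neurons, was higher by 4.43 ± 0.32.

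Genes of the excitatory synapse and activity-regulated genes were lower in brainstem without exception among those listed. All 20 synapse genes were called lower, 19 by over 2-fold, with a median of -2.47. Over all genes these shares were 39.1% and 9.78%. Besides Nrgn and Ddn, the inositol kinase gene Itpka differed by -6.38 ± 0.13 and Camk2a, the kinase of synaptic plasticity, by -5.68. The smallest difference was that of Dlg4 (PSD-95) at -0.53. All 20 immediate early genes, which neurons switch on with activity, were called lower, 18 by over 2-fold, with a median of -2.85. Egr3 ran from 0 to 0.688 CPM in brainstem and from 44.4 to 154 CPM in cortex, a difference of -7.54 ± 0.10. Fos overlapped, from 14.1 to 78.9 CPM (median 27.1) against 17.4 to 175 CPM (median 94.7), and differed by -1.29 ± 0.19. Fos was not called without the medulla (-0.45, limma adjusted p = 0.161). Its median was 23.0 CPM in medulla and 59.2 CPM in pons. The summed level of immediate early genes ranged from 1146 to 5990 CPM over cortical libraries and from 487 to 825 CPM over brainstem libraries.

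Interneuron markers split by gene, with 9 of 15 lower and 3 higher (median -1.63), against 39.1% and 39.0% of all genes. Lower genes included the peptide genes Cck (-5.49 ± 0.20), Cort (-5.07 ± 0.13) and Npy (-4.70 ± 0.14), and Sst at -1.33 ± 0.09. The calcium-binding protein genes Calb2 and Pvalb, used by many brainstem neurons as well as by cortical interneurons, were higher by 3.94 ± 0.08 and 2.29 ± 0.23. Pvalb ran from 51.9 to 359 CPM in brainstem and from 5.01 to 81.5 CPM in cortex, so the classes overlapped. Penk, an opioid peptide gene, was higher by 1.07 ± 0.12, and without the medulla it was not called (0.28, limma adjusted p = 0.269).

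Genes of large, fast-conducting axons were higher. Of 21 neurofilament and axonal channel genes 19 were higher and 1 lower (Scn8a, -0.32 ± 0.08), with a median of 1.55. Over all genes 39.0% were higher. Scn8a was not called without motor cortex (-0.13, limma adjusted p = 0.197). Nefh, the heavy neurofilament, ran from 169.9 to 1108 CPM in brainstem (median 765) and from 31.4 to 129 CPM in cortex (median 72.9), a difference of 3.36 ± 0.12 without overlap. Its lowest brainstem value was the pons of AL mouse 68. Sncg, a synuclein gene of projection neurons, differed by 5.32 ± 0.16, Spp1, which large neurons and other cells express, by 3.98 ± 0.20, and Syt2, a fast synaptotagmin, by 3.49 ± 0.27.

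Myelin genes were higher as a group. All 29 were called higher, each by over 2-fold, with a median of 2.77. Over all genes 39.0% were higher and 9.75% higher by 2-fold. For 29 of 29 every brainstem library lay above every cortical library, against 8.52% over all genes. Mbp, which encodes myelin basic protein, ran from 12175 to 17809 CPM in brainstem (median 14390) and from 231 to 2903 CPM in cortex (median 1297). The difference was 3.52 ± 0.11 (SE, n = 8; limma adjusted p = 1.15e-10), an 11.5-fold higher level. Mobp, a gene of compact myelin, differed by 3.51 ± 0.11 and the gap junction gene Gjb1 by 3.90 ± 0.10. The smaller differences of the list were in Enpp2 (1.11) and in the lineage factors Olig2 (1.45) and Olig1 (1.63). The cortical regions were ordered within these genes, with Mbp medians of 1971 CPM in motor, 1190 CPM in visual and 591 CPM in entorhinal cortex. Markers of oligodendrocyte precursors were mixed: 4 of 10 higher, 2 lower and 4 not called, with a median of 0.10. The share higher was near the 39.0% over all genes. Pdgfra (-0.14) and Cspg4 (0.01), the usual precursor markers, were not called.

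Astrocyte genes leaned higher, with 16 of 24 higher and 5 lower (median 0.63), against 39.0% and 39.1% of all genes. Gfap, the filament of fibrous and reactive astrocytes, ran from 444 to 2409 CPM in brainstem (median 1048) and from 98.1 to 499.8 CPM in cortex (median 169). The highest cortical value passed the lowest brainstem value, and the difference was 2.36 ± 0.14. Agt, the angiotensin precursor that astrocytes make, was higher by 3.77 ± 0.20, S100b by 2.38 ± 0.055 and the water channel Aqp4 by 1.71 ± 0.07. The glutamate uptake genes Slc1a3 and Slc1a2 were lower (-1.45 ± 0.06 and -0.82), as was Mfge8 (-2.20 ± 0.08).

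Genes of microglia and complement did not all move together, and more of them were higher than lower. Of 24 listed genes 15 were higher, 4 lower and 5 not called (median 0.69). Over all genes 39.0% were higher and 39.1% lower. Cx3cr1, the fractalkine receptor of microglia, ran from 52.7 to 86.1 CPM in brainstem (median 62.9) and from 51.0 to 83.6 CPM in cortex (median 60.5). It was not called (0.03 ± 0.05, limma adjusted p = 0.595). P2ry12 (-0.56 ± 0.04) and Tmem119 (-0.28 ± 0.06), genes of homeostatic microglia, were lower. C3, the central complement component, ran from 3.81 to 52.3 CPM in brainstem (median 8.90) and from 0 to 3.38 CPM in cortex (median 0.173), and differed by 4.66 ± 0.21 without overlap. C4b, made by astrocytes and oligodendrocytes among others, ran from 54.3 to 236 CPM against 8.30 to 50.2 CPM and differed by 2.38 ± 0.15. Among other members of the list, Cst7 was higher by 3.39 ± 0.20, Itgax by 2.89 ± 0.21 and Lyz2 by 1.92, while C1qa differed by 1.04 and Trem2 by 0.84.

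Vessel genes differed little, with 15 of 18 higher but 3 by over 2-fold (median 0.54). Over all genes these shares were 39.0% and 9.75%. The 3 vessel genes past 2-fold were the smooth muscle genes Acta2 (1.16 ± 0.21), Tagln (1.09 ± 0.17, 7 of 8 animals) and Myh11, the last just past the limit.

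**Figure D4:**
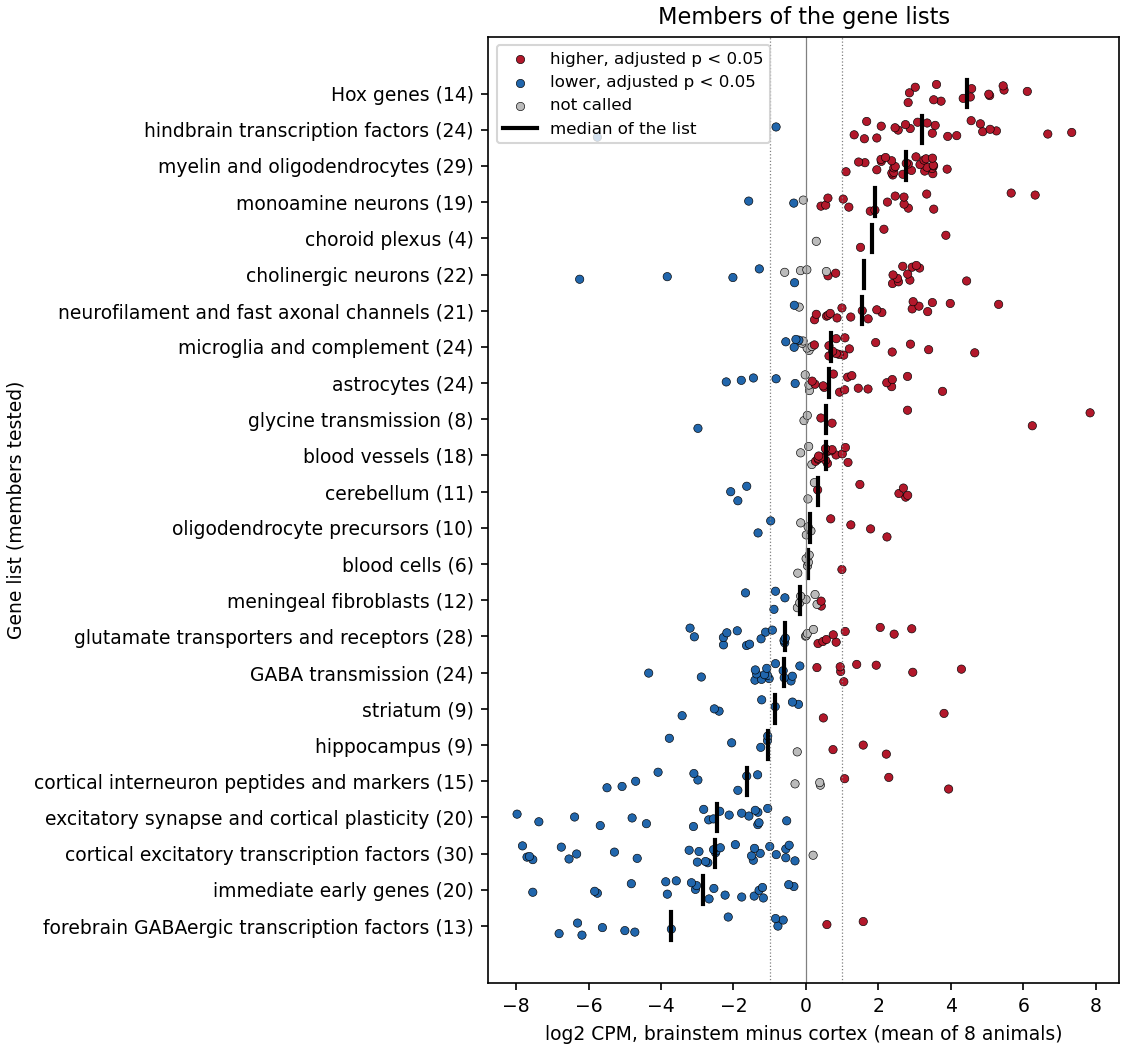
Difference in log2 CPM, brainstem minus cortex, for every tested member of 24 gene lists, with the number tested in brackets, the list median as a black bar, and dotted lines at a 2-fold difference. Hox and myelin genes lie wholly to the right, and excitatory synapse and immediate early genes wholly to the left.

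Markers of neighbouring tissues were also measured, and their part in the results was not tested. The counts below stand beside 39.0% higher and 39.1% lower over all genes. For 12 meningeal fibroblast genes 2 were higher, 4 lower and 6 not called, with summed levels of 967 to 4308 CPM in brainstem and 853 to 4699 CPM in cortex. Without the libraries that stood apart, 2 were higher and 7 lower. Of 12 choroid plexus genes 4 were tested and 3 were higher (Slc4a5, Tmem72 and Clic6). Slc4a5 and Tmem72 had a median of 0 in each cortical region, and 8 members were not tested. The filter thus limits this count as it did for the Hox genes. The summed level of all 12 was 8.40 to 41.2 CPM in brainstem apart from the medulla of PBS mouse 84, with 342 CPM, and 2.43 to 9.69 CPM in cortex. Ttr, the defining choroid plexus transcript, did not pass the filter. Of 11 tested cerebellar genes 6 were higher and 3 lower, and those higher included Cbln3 (2.81 ± 0.38) and Cbln1 (2.75 ± 0.38), synapse organisers. The granule cell gene Gabra6 had 271 counts over brainstem libraries and 4 over cortical ones. Of the hippocampal genes 3 of 9 were higher and 5 lower, of the striatal genes 2 of 9 higher and 7 lower, and of the blood cell genes 1 of 6 higher. The pituitary hormone gene Prl ranged from 0 to 720.4 CPM over brainstem libraries, the highest in a medulla, and from 0 to 72.0 CPM over cortical libraries (3.49 ± 0.84, higher in 6 of 8 animals, with only 0 counts in the other two).

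Medulla and pons were compared within the 7 animals that had both. A total of 1626 genes (11.4%) differed, 792 higher in medulla (5.56%) and 834 higher in pons (5.85%). Chat (5.47), Slc5a7 (5.72) and Slc6a5 (2.46) were higher in medulla, as were Chodl (3.85 ± 0.28), a marker of fast motor neurons, and Rtn4rl2 (3.24). Irx2 (-3.10), Slc17a8 (-3.21), Neurod6 (-2.52) and Rasgrp1 (-3.11) were higher in pons. Hoxb5 (-0.38) and the myelin gene Mbp (0.10) were not called. Of the 29 myelin genes 1 was called between these regions, and of 24 hindbrain factors 9 were higher in medulla and 2 in pons. The count depended on the animals included. It was 677 without PBS mouse 80, 750 without PBS mouse 76, 857 without AL mouse 69, 891 without AL mouse 63 and 1053 without AL mouse 66, each with 1 animal fewer. Without AL mouse 68, whose pons stood apart, it was 2208.

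The comparison was also made within each cohort. In AL females 9886 genes (69.3%) were called, 35.0% higher and 34.3% lower, and in PBS males 9933 (69.7%), 34.3% higher and 35.4% lower. A direct test of the difference between cohorts called 0 genes (0.00%) in limma, with 762 at an unadjusted p under 0.05 and a smallest adjusted p of 0.430. With 4 animals in each cohort this does not show that the cohorts were alike. The 29 myelin genes, 20 synapse genes and 20 immediate early genes were each called in the same direction in both cohorts. So were the 14 Hox genes, but they passed the filter through brainstem, so their direction says little.

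The treated animals of the series offered other mice for the same measurement: 5 dietary restricted females and 3 males given young plasma, with 40 libraries. There 10415 genes (73.1%) were called, 36.4% higher and 36.6% lower. All 2784 genes with a 2-fold call in controls had the same sign in the treated mice, and 2770 of them (99.5%) were also called, with 0 in the opposite direction. Of the 11133 genes called in controls, 9924 were called with the same sign. Slc6a5 differed by 7.19, Nrgn by -7.81, Mbp by 3.29 and Slc17a6 by 2.88 in treated mice. These animals differ from controls in treatment, and the difference between the groups was not tested here.

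**Figure D5:**
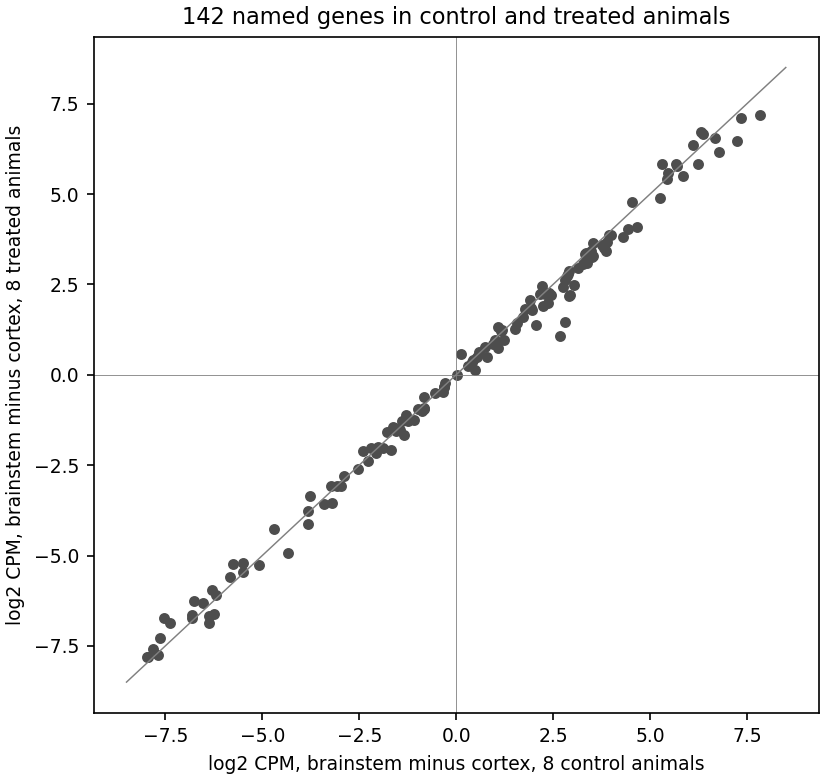
Difference in log2 CPM, brainstem minus cortex, of 142 named genes in 8 control animals (horizontal) and in 8 treated animals (vertical), with the line of equal values. The points lie along the line from Nrgn at the lower left to Slc6a5 at the upper right.

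Medians over control animals were also taken in all 15 brain regions, with libraries scaled together. For 10 of the 12 genes with the largest brainstem excess, medulla and pons held the top 2 places. The exceptions were Slc10a4, which the caudate putamen also expressed (40.8 CPM against 39.6 CPM in medulla and 36.2 CPM in pons), and Shox2, whose median was 194 CPM in thalamus and 28.5 CPM in medulla. For the 12 genes with the largest cortical excess, medulla and pons held places 12 to 15. Slc17a6 was highest in thalamus (789 CPM), followed by medulla (299 CPM) and pons (233 CPM). Mbp was highest in pons (14672 CPM) and medulla (14456 CPM), above corpus callosum (12747 CPM). C4b was lower in medulla (119 CPM) and pons (115 CPM) than in corpus callosum (250.2 CPM) and the SVZ (231 CPM). These orders are descriptions without a test.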

How the data were processed

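The authors deposited raw read counts for each gene and library. Per the submitters' processing notes, Trim Galore 0.3.7, STAR 2.5.3a, DESeq2 and GRCm38 were used; the counting program and annotation are not given in the sources used here. The members and gene lists were chosen with earlier results of these data known.

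Low counts were filtered by region (filterByExpr, edgeR 4.0.16, R 4.3.3; minimum count 10, minimum total 15), leaving out 6819 genes. Counts were scaled by TMM to CPM and to log2 CPM with a prior count of 2, computed here from the deposited counts. Each animal gave 1 difference per gene from the regions it had. These were tested with limma 3.58.1 (variance trend on mean log2 CPM, cohort as a centred term, so that the value is the mean of both cohorts), with Benjamini-Hochberg adjustment over all 14257 genes. Gene positions are from GENCODE on GRCm38 and upstream sequences from RefSeq on GRCm38.p6.

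Animals were the unit because the mouse number marks 1 animal in all its regions. Deviations from group means correlated at 0.076 on average between brainstem and cortex libraries of the same animal (42 pairs) and at -0.026 between animals (123 pairs). Among 51 replicate pairs the lowest chi-square per degree of freedom was 1.69, and none was treated as a duplicate. Counting intervals (95%) and floors (3 counts) cover counting error only, since reads carry no molecular identifiers in the labels.

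Named genes were the 12 largest called differences in each direction with 1 sign in every animal and at least 10 CPM in the higher class, without predicted, Rik and mitochondrial symbols; the 3 largest called members of each list in each direction; a fixed list of transmitter, identity and glial genes; and the 5 strongest calls in each direction between medulla and pons and, had there been any, between cohorts. Some members are not reported here. Members outside this rule, such as Fev, Camk2a or Slc6a3, were picked after their values were seen.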

Additional observations from a re-analysis of the deposited data

Results flagged for a closer look

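Among 100 groups of 4 samples (named genes in each cohort, and library totals and mitochondrial shares in each region and cohort), 7 held an animal far from the other 3; chance flags about 1 group in 20. The 7 values are log2 differences, brainstem minus cortex. AL mouse 68, whose pons library stood apart, had 3.19 for Hoxb3os where the remaining AL mice ran from 6.00 to 6.16, and 0.31 for Pvalb against 2.30 to 2.66. AL mouse 63 had -7.92 for Egr3 against -7.27 to -7.15.

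PBS mouse 72 had no pons and no visual cortex library, and its entorhinal library stood apart. It had 2.07 for Slc17a6 (others 3.31 to 3.37), 2.85 for Mbp (3.57 to 3.67) and 2.14 for C4b (1.96 to 1.98). PBS mouse 80 had -8.97 for Ddn against -7.71 to -7.66.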

How the results depend on the processing

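Of 3385 values of 142 named genes under the alternatives, 3340 kept their direction and side of the threshold, as did every value of 118 genes; 33 lost the call and 3 gained it. The reversed values were Cx3cr1 at -0.0060 without PBS mouse 84, -0.023 without pons and -0.013 without both libraries that stood apart; Tshz2 at -0.044 without PBS mouse 84, -0.32 without medulla, -0.064 without entorhinal cortex and -0.13 with edgeR and no block; Slco2a1 at -0.61 without pons; and Htr2a at 0.093 without motor cortex. Leaving out 1 animal gave -0.0060 to 0.081 for Cx3cr1 and -0.044 to 0.35 for Tshz2. The cause was not tested.

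With the animal as a replicate block, edgeR called 11486 genes (11022 shared with limma; 2858 by 2-fold), edgeR without the block called 11358 (2837), and DESeq2 with the block called 11459 (2872). Leaving out 1 animal gave 10619 to 11083 calls, 2702 to 2807 by 2-fold, 8904 to 9878 in AL, 8977 to 10156 in PBS, 0 to 0 between cohorts and 677 to 2208 between medulla and pons. The last count was 1042 without a filter on low counts, where more genes were tested, and 2230 without both libraries that stood apart; these library choices were made after seeing the data. The animals without all regions limit the precision. They also shift the mean of a gene that differs between regions of a class, as PBS mouse 72, with medulla alone for brainstem, did for Chat. Genes near 0 counts in a class have fitted values that depend on the prior count.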
